A study of Mus musculus with 3 samples.

Results

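The 4 mouse Hox clusters and the DNA on either side of them were followed through reduced representation bisulphite sequencing (RRBS) of embryonic stem (ES) cells that were wild type, lacked Dnmt3a (Dnmt3a KO) or lacked all 3 DNA methyltransferases (Dnmt TKO). RRBS reads the methylation of cytosines near sites of the enzyme MspI, which are frequent in CpG-rich DNA. Members were all CpGs covered by more than 10 reads inside fixed windows of the mm9 genome. The windows were chr6:52100000-52220000 for Hoxa, chr11:96050000-96240000 for Hoxb, chr15:102740000-102880000 for Hoxc and chr2:74490000-74610000 for Hoxd. The 50000 bp outside each end of a window were taken as borders. By this rule 4042 of the 1236267 CpGs covered in any library were members, and 2385 of them, 2180 in clusters and 205 in borders, were covered in both wild type and Dnmt3a KO. These 2385 are called shared CpGs below. Of all shared CpGs of the genome there were 631561.

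There was 1 library per genotype. Wild-type and Dnmt3a KO cells had a mixed 129-C57Bl/6 background, while the Dnmt TKO cells, which lack Dnmt1, Dnmt3a and Dnmt3b, were of the J1 line. All 3 were kept in medium with serum and the cytokine LIF. The 2 mutant lines grew on gelatine, and the wild type was labelled as grown on feeder cells or gelatine. Both DNMT3A isoforms were removed in the Dnmt3a KO by a pair of guides to exon 7, and whether the line is 1 clone was not given in the sources used here. With 1 library each there was no replicate error, so no test between genotypes was possible, and the genotype of the Dnmt TKO cannot be told apart from the strain. Intervals given below are 95% intervals of the read counts and cover counting error only. No molecular identifiers were described to tell PCR copies apart, and neighbouring CpGs often lie on the same reads, so the intervals can be too narrow.

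Hox genes encode homeodomain transcription factors that give positional identity along the head-to-tail axis and in the limbs. Within each cluster, low-numbered genes are used early and towards the head, and high-numbered genes later and towards the tail, the limb tips and the genitalia. In ES cells the clusters are held silent by Polycomb repression over long CpG-rich stretches that are largely free of DNA methylation. DNMT3A is a de novo methyltransferase that adds methyl groups to unmethylated CpGs, DNMT3B is its close relative and DNMT1 copies methylation after replication.

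Sequence from the clusters shows the kinds of DNA compared. The first group was taken from runs, which join CpGs that reached 20% in the wild type and can have CpGs under 20% between them, and the second from within 1000 bp of the starts of Hoxb7 and Hoxd8, which have low wild-type means. All are 120 bases of mm9, plus strand, read 5′ to 3′ and outside untranslated regions, and capitals mark the CpGs covered in both wild type and Dnmt3a KO.

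Hoxa, intron of Hoxa3 (chr6:52135395-52135514): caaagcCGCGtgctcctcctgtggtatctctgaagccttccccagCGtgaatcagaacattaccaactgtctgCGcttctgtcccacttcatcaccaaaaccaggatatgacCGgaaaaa
Hoxa, coding exon of Hoxa3 (chr6:52120035-52120154): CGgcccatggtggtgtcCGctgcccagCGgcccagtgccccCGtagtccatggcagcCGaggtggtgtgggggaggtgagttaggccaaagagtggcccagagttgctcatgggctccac
Hoxb, noncoding exon of Gm11539 (chr11:96110089-96110208): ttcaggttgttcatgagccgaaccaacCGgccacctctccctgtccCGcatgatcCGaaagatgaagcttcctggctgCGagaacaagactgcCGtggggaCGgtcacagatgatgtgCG
Hoxb, intergenic (chr11:96088378-96088497): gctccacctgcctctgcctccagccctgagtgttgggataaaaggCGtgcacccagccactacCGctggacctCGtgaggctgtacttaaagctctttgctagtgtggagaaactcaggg
Hoxc, upstream of Hoxc10 (chr15:102793832-102793951): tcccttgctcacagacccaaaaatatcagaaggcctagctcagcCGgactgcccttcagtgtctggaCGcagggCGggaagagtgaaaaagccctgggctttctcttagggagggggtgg
Hoxd, Hoxd12 (chr2:74513284-74513403): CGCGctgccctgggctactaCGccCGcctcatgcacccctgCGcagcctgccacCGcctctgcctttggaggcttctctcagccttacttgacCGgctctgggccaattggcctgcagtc
Hoxd, upstream of Hoxd3 (chr2:74577021-74577140): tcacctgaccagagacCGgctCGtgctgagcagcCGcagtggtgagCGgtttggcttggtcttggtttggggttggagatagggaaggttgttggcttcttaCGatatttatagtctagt

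Hoxb8 transcript, within 1000 bp upstream of Hoxb7 (chr11:96144597-96144716): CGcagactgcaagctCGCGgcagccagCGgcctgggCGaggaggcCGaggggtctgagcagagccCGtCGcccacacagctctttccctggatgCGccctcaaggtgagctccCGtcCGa
Hoxd8, near the start (chr2:74543639-74543758): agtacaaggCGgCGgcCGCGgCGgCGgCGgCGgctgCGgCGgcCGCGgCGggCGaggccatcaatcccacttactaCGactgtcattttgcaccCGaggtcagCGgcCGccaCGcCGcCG

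In the Hoxa3 intron, the 5 marked CpGs had 94.6%, 75.7%, 83.8%, 88.9% and 79.3% methylation in wild type, in the order printed. The same 5 had 23.5%, 17.6%, 17.6%, 41.2% and 0% in Dnmt3a KO. Every one was lower in the Dnmt3a KO library. In the Gm11539 exon the 7 marked CpGs ranged from 52.9% to 78.7% in wild type and from 11.1% to 47.6% in Dnmt3a KO. The 3 CpGs upstream of Hoxc10 had 25.3%, 29.5% and 37.2% in wild type against 18.5%, 0% and 0% in Dnmt3a KO. The windows near Hoxb7 and Hoxd8 were the opposite in content and level. The Hoxd8 window held 21 CpGs with a wild-type mean of 0.129%, and the window upstream of Hoxb7 11 CpGs with 0.222%. Every marked CpG of both windows was at 0% in Dnmt3a KO. GC content was 70.0% in the window upstream of Hoxb7 and 74.2% in the Hoxd8 window.

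Over all CpGs covered in each library, the clusters were nearly unmethylated but not empty of methylation. The mean level was 5.58% in wild type (3102 CpGs and 154278 reads), and 60.9% of these CpGs had no methylated read. It was 1.38% in Dnmt3a KO (2625 CpGs), with 85.5% at 0. The wild-type mean was carried by a minority of CpGs. At least 20% methylation was found at 264 cluster CpGs in wild type and 40 in Dnmt3a KO, and at least 80% at 18 and 0. Weighted by reads, 3.83% of wild-type reads were methylated (Wilson interval 3.74 to 3.93) against 1.14% in Dnmt3a KO (1.06 to 1.23). The borders stood higher in wild type, at 19.4% over 296 CpGs, and had 4.30% over 281 CpGs in Dnmt3a KO. Outside the windows and borders the genome had 28.5% in wild type against 17.0% in the Dnmt3a KO.

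The Dnmt TKO library gives the background of the assay. In the clusters 9 of 16909 Dnmt TKO reads were methylated, or 0.0532% (Wilson interval 0.0280 to 0.101), and each was the only methylated read of its CpG. In the borders there was none among 1985 reads, which by the limit of 3 counts allows up to 0.151%, and by the upper Wilson limit 0.193%. The share outside the Hox windows was 0.0932%. The read-weighted share of 1.14% in the Dnmt3a KO clusters lay above all of these, and its interval did not reach them.

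Depth and coverage limited what could be compared. The median depth per listed CpG was 29 (wild type), 17 (Dnmt3a KO) and 12 (Dnmt TKO). In wild type, RRBS covered between 19.6% (Hoxb) and 28.4% (Hoxd) of the CpGs in the sequence of a cluster. Coverage also differed by methylation. Of the 264 cluster CpGs that reached 20% in wild type, 148 (56.1%) were not covered in Dnmt3a KO, against 27.3% of those under 20%. The 148 had a mean of 46.1% and a median of 19 reads in wild type. Shared CpGs thus under-represent the methylated part of the clusters, Hoxc most, where 45 of 57 were not covered in Dnmt3a KO.

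The 2180 shared cluster CpGs averaged 3.87% in wild type against 1.29% in the Dnmt3a KO. This is a difference of -2.58 percentage points (interval -2.70 to -2.45), so that 66.7% of the wild-type level was not found in Dnmt3a KO. Over all shared CpGs of the genome the means were 17.8% and 13.4%, a share of 24.7%. Lower values in Dnmt3a KO were seen at 739 cluster CpGs, higher ones at 169 and equal ones at 1272, nearly all of the last at 0 in both. Of the 631561 shared CpGs of the genome, 209592 were lower, 51990 higher and 369979 equal, so these counts are not particular to the clusters. Median depth at the cluster CpGs was 51 reads in wild type and 21 in Dnmt3a KO, and fewer reads give 0 more often at low levels. Each of the 4 clusters was lower. Hoxb had the highest level, with 5.89% in wild type and 2.22% in Dnmt3a KO (difference -3.67, interval -4.02 to -3.32). Hoxa had 3.72% and 1.24% (-2.48, interval -2.73 to -2.22). Hoxd had 3.21% and 0.978% (-2.23, interval -2.41 to -2.04). Hoxc had 2.60% and 0.689% (-1.91, interval -2.14 to -1.66), the lowest of the 4 over shared CpGs. Over all CpGs covered in wild type its mean was 5.90%, above Hoxa (4.42%) and Hoxd (4.21%) and below Hoxb (8.25%).

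**Figure D1:**
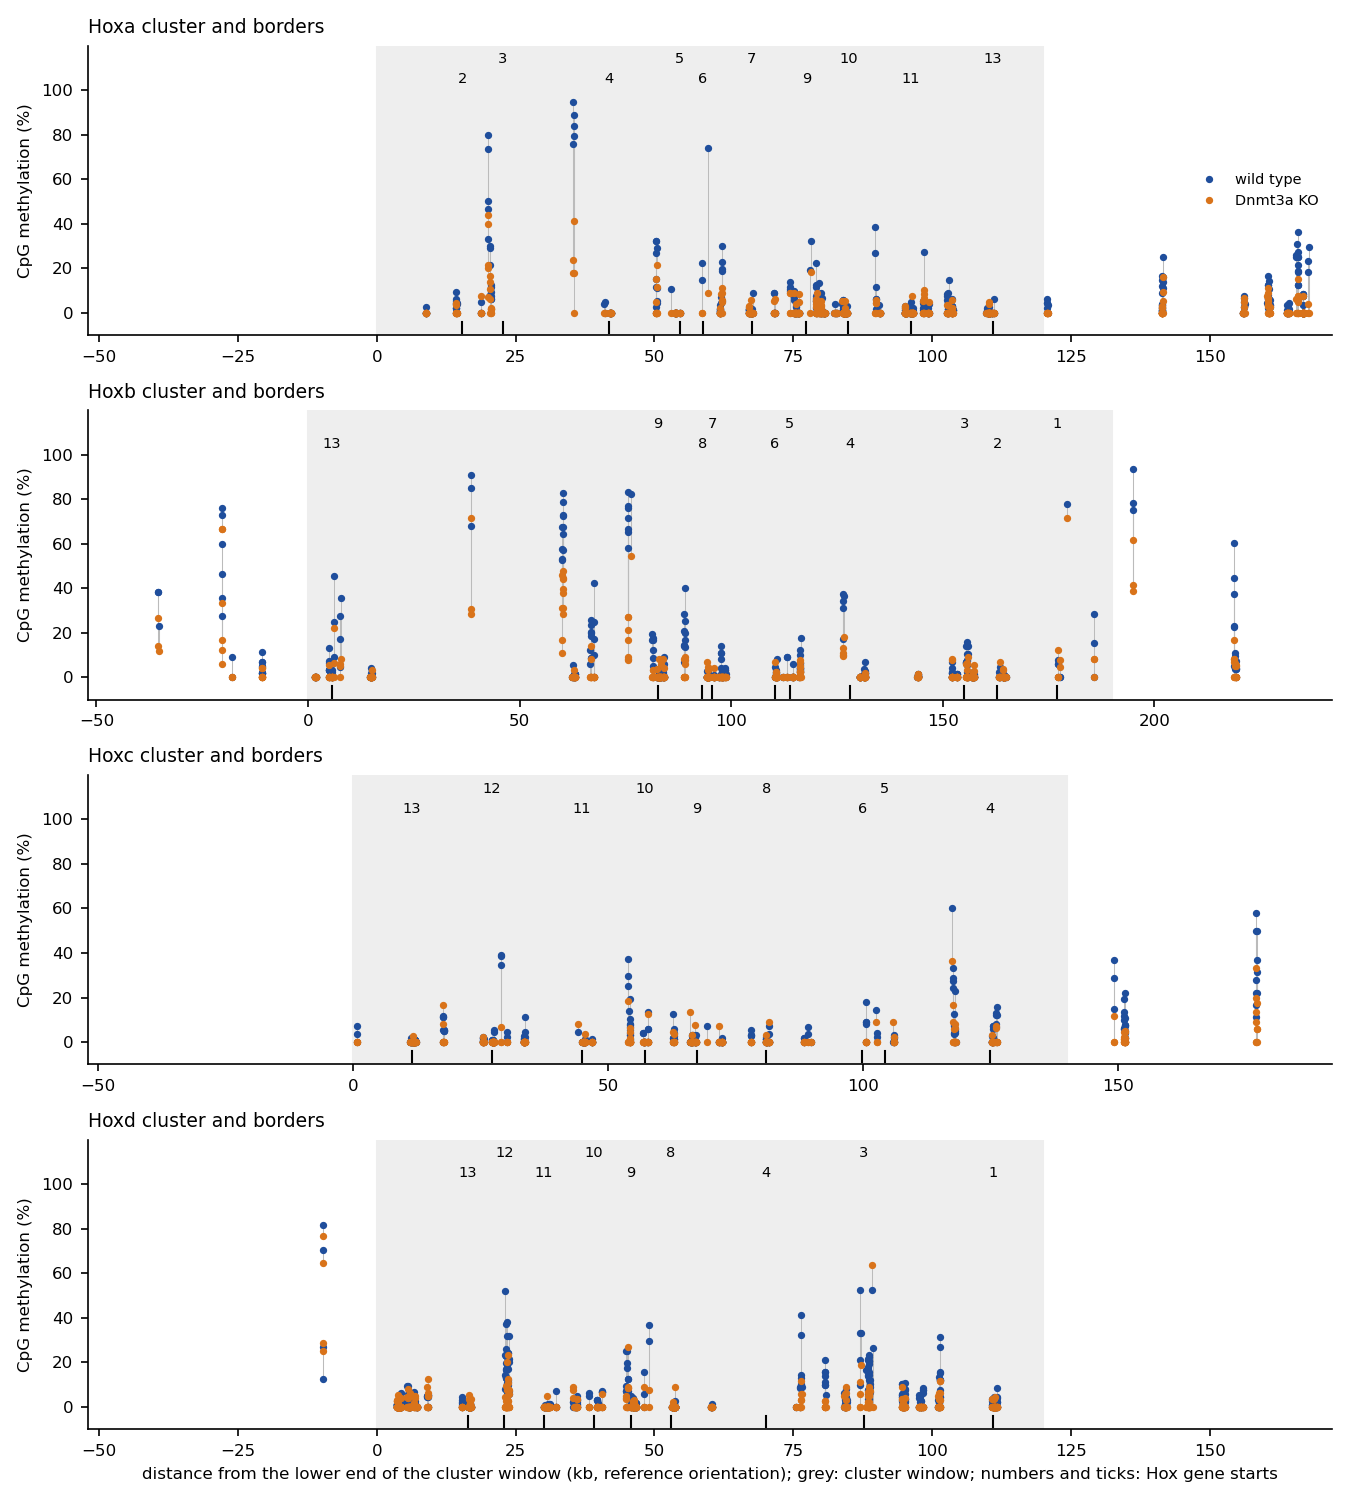
Methylation of every shared CpG along the 4 Hox clusters and their borders, with the position in kb from the lower end of each window on the horizontal axis and the methylation in percent on the vertical axis. Blue points are wild type, orange points Dnmt3a KO, and grey lines join the 2 values of a CpG. The grey band is the cluster window, and numbers and ticks mark the starts of the listed Hox genes. Most points lie near 0, and most methylated CpGs of wild type have lower Dnmt3a KO values.

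Fisher's exact test of the reads of each CpG, two-sided and with Benjamini-Hochberg adjustment over all 631561 shared CpGs, compared the 2 libraries and not the genotypes. A CpG was called at q under 0.05 and a difference of at least 20 percentage points. By this rule 23 cluster CpGs were called lower in Dnmt3a KO and 0 higher. In the genome 1.64% of shared CpGs were called lower and 0.0304% higher. The 23 called CpGs had 21.2% to 94.6% in wild type and 0% to 41.2% in Dnmt3a KO, where 9 were at 0. They lay 9 in Hoxb, 8 in Hoxa, 4 in Hoxd and 2 in Hoxc, and 4 of them were within 1000 bp of a Hox start. A CpG at 0 in wild type cannot be called lower, so the clusters are better read against CpGs of the same wild-type level.

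Matched by wild-type level, the share lost between these 2 libraries was larger in the clusters and borders than in the genome. In the class of 20 to 80%, 107 cluster CpGs averaged 38.0% in wild type against 11.0% in the Dnmt3a KO (difference -27.0, interval -28.9 to -25.1). The share lost was 71.1%, and 19 of the 107 (17.8%) were called lower. The 97165 shared CpGs of this class in the genome had 57.4% and 40.5%, a share of 29.4%, and 7.45% of them were called lower. The 40 border CpGs of the class had 38.5% and 15.2%, a share of 60.4%, and 0 were called. In the class of 80% and more, the 9 cluster CpGs had 85.7% and 38.8% (difference -47.0, interval -55.2 to -37.9), and 4 of the 9 were called lower. The genome had 87.0% and 72.1% in that class, with 5.18% called lower. Cluster CpGs of 20 to 80% lay lower within the class than those of the genome, so narrower steps were also compared. At 20 to 30% in wild type the share lost was 80.8% in clusters (49 CpGs), 75.4% in borders (19) and 53.5% in the genome. At 30 to 50% it was 77.3% (31 CpGs), 70.9% (11) and 44.8%, and at 50 to 80% it was 60.8% (27 CpGs), 42.7% (10) and 25.3%. The order clusters, borders, genome held in each of these 3 steps. Above 80% the values had the same order, but the borders had only 2 CpGs there (difference -18.6, interval -38.0 to 0.230).

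Selection by the wild-type value favours CpGs that were counted high in that library. With CpGs chosen by the mean of both libraries instead, the 20 to 80% class held 60 cluster CpGs with 55.2% in wild type and 22.0% in Dnmt3a KO (difference -33.2, interval -36.3 to -29.9). The share lost was then 60.1% in clusters, 43.1% in 24 border CpGs and 29.6% in 112436 CpGs of the genome. Chosen by the Dnmt3a KO value, 30 cluster CpGs had 62.8% and 36.2%, 13 border CpGs 58.7% and 44.9%, and the genome 70.8% and 53.3%. The share lost was then 42.3% in clusters, 23.6% in borders and 24.6% in the genome. In this class of 20 to 80% the clusters had the largest share by all 3 choices. The borders exceeded the genome there by the first 2 and not by the Dnmt3a KO choice. Under 20% the borders lost a larger share than the clusters by all 3 choices. It was 68.5% against 64.3% by the wild-type value, 77.4% against 71.9% by the mean and 76.6% against 73.7% by the Dnmt3a KO value.

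**Figure D2:**
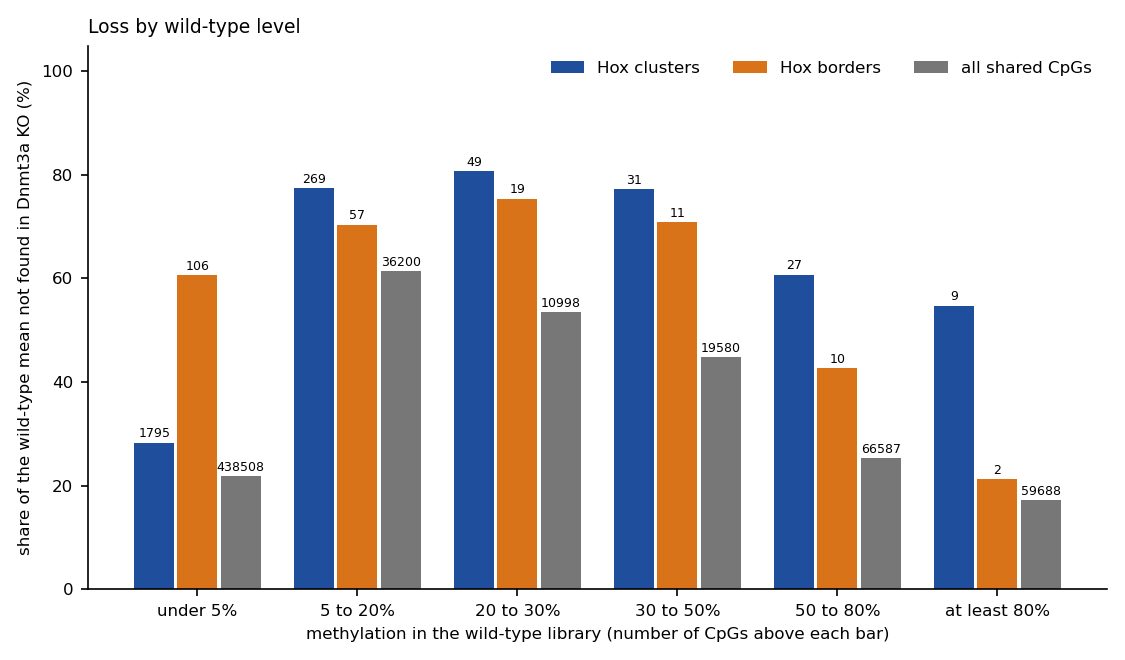
Share of the wild-type mean that was not found in Dnmt3a KO, in percent, for 6 classes of wild-type methylation. Bars stand for shared CpGs of the Hox clusters (blue), of their borders (orange) and of the whole genome (grey), with the number of CpGs above each; from 20% methylation upward the cluster bar is the highest, from 80.8% at 20 to 30% down to 54.8% at 80% and more, while the genome runs from 53.5% to 17.1%. There is 1 library per genotype, so the bars carry no replicate error.

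Of the 116 shared cluster CpGs that reached 20% in wild type, 114 were lower in the Dnmt3a KO, 40 had no methylated read there and 4 kept at least 50%. They averaged 41.7% in wild type against 13.1% in the Dnmt3a KO, and 87 (75.0%) had under 20% in Dnmt3a KO. Of the 156853 shared CpGs of the genome that reached 20% in wild type, 80.8% were lower in Dnmt3a KO. There 5341 of them had no methylated read and 17.2% had under 20%, but the 156853 had a higher wild-type mean, 68.6%. By level, the share under 20% in Dnmt3a KO was 93.9% in clusters against 81.1% in the genome at 20 to 30%, 90.3% against 54.3% at 30 to 50%, and 44.4% against 10.5% at 50 to 80%. Read intervals lay wholly below 0 for 66 of the 116. At an unadjusted p under 0.05 by Fisher's exact test 64 of the 116 were lower, against 42227 of the 156853 in the genome. Hoxb held 43 of the 116 (51.7% to 20.0%), Hoxd 35 (28.9% to 6.89%), Hoxa 26 (46.2% to 12.7%) and Hoxc 12 (33.4% to 7.97%). In the other direction, 1 cluster CpG in Hoxd under 20% in wild type had at least 20% in Dnmt3a KO. It stood at 12.5% and 26.7%.

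Most Hox gene starts had very low methylation. Each of the 38 listed Hox genes was described by the shared CpGs within 1000 bp of the start of its transcript with the longest coding sequence, and by those inside that transcript. At least 5 shared CpGs were present near the start of 30 genes and in the transcript of 36, and 37 genes had a value of either kind. Hoxa6 had neither. Near the start the median over the 30 genes was 0.725% in wild type against 0.260% in the Dnmt3a KO, and 17 genes had under 1% in wild type. Dnmt3a KO was lower at 23 genes, higher at 6 and equal at 1. The read interval lay below 0 for 8 genes (Hoxb3, Hoxb13, Hoxc4, Hoxc6, Hoxd3, Hoxd9, Hoxd10 and Hoxd12), held 0 for 22 and lay above 0 for none. The 6 genes with the higher value in Dnmt3a KO (Hoxb1, Hoxb9, Hoxc11, Hoxd8, Hoxd11 and Hoxd13) exceeded wild type by at most 0.809 percentage points. Of all 11790 protein-coding genes with as many CpGs, Dnmt3a KO was lower at 62.9%, and 10.1% had a wild-type mean of at least 5%, which 5 of the 30 Hox genes reached. A called CpG lay near the start of 2 of these 30 Hox genes (6.67%) and of 3.37% of all coding genes with as many CpGs. Hoxa6, with 3 shared CpGs near its start, held 1 as well. In the transcripts the medians were 1.00% and 0.434%, and Dnmt3a KO was lower at 29 genes and higher at 7. At least 5% was found in 7 transcripts in wild type and in 2, those of Hoxa3 and Hoxb1, in Dnmt3a KO.

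**Figure D3:**
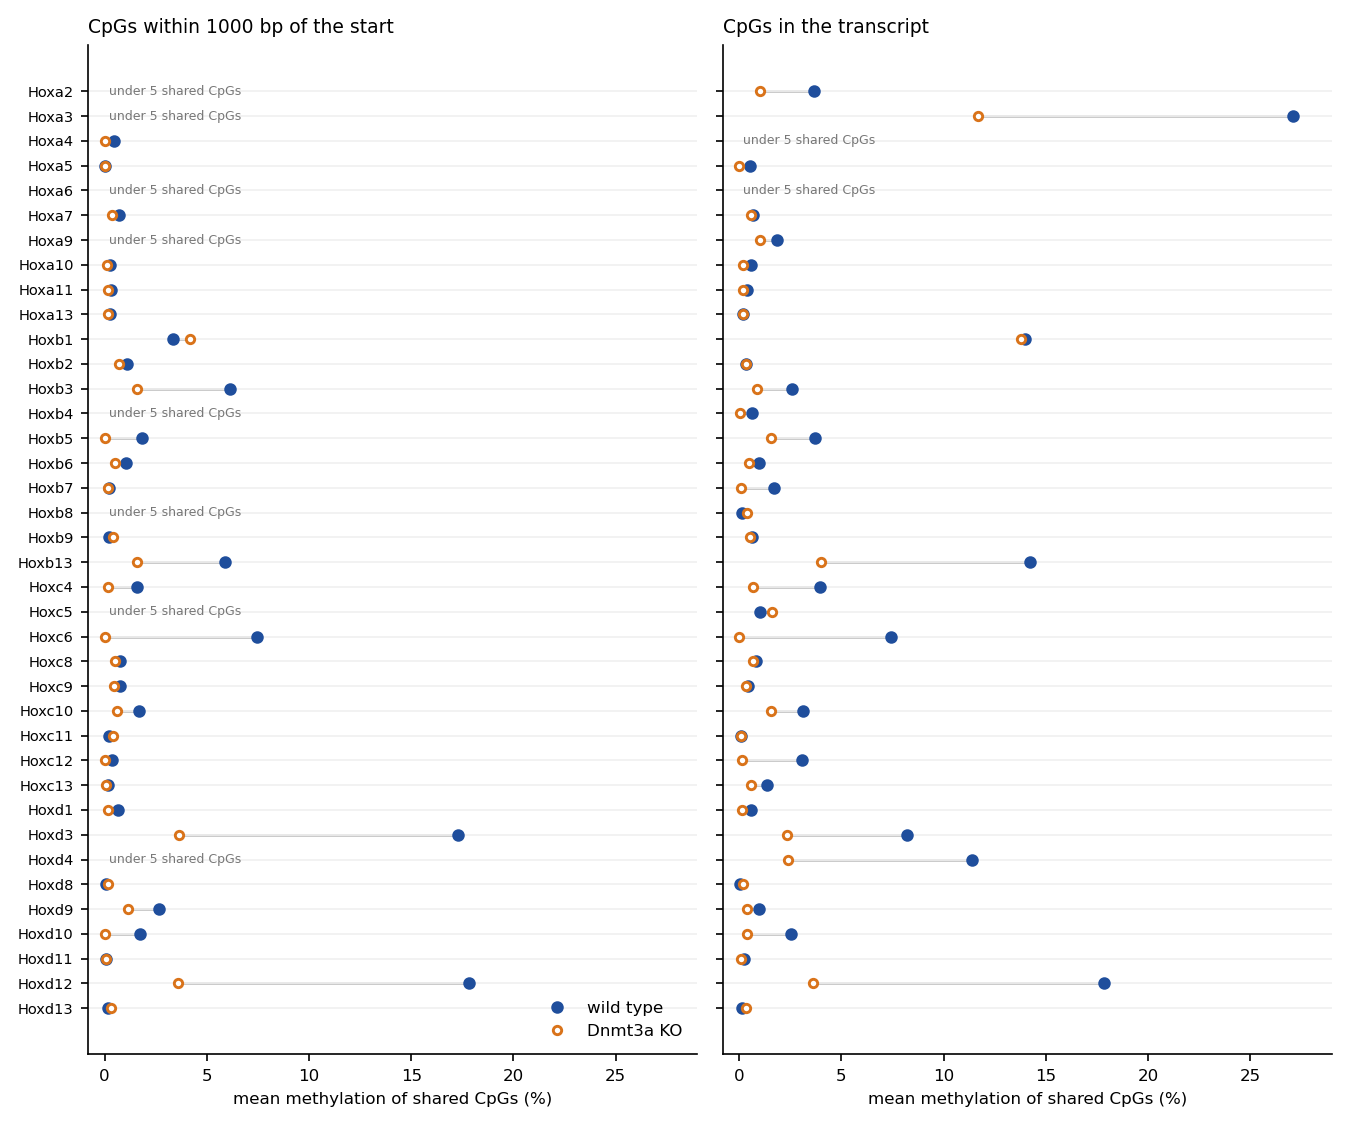
Mean methylation of shared CpGs within 1000 bp of the start (left) and in the transcript (right) of the 38 listed Hox genes, in percent. Filled blue points are wild type and open orange points Dnmt3a KO, and genes with under 5 shared CpGs are named as such; near the start most genes lie under 2% in both libraries, and Hoxd12 and Hoxd3 stand apart at 17.8% and 17.3% in wild type and 3.61% and 3.64% in Dnmt3a KO.

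The head-end genes of groups 1 to 4 pattern the hindbrain, the pharyngeal arches and the neck. Near the start, 7 of the 11 had a value, with a median of 1.58% in wild type against 0.714% in the Dnmt3a KO. Hoxd3, which shapes the first neck vertebrae, was the highest of them (chr2:74577676-74585957, plus strand). Its 22 shared CpGs had 17.3% in wild type and 3.64% in Dnmt3a KO (difference -13.7, interval -15.7 to -11.4), and 1 of them was called lower. Hoxb3 had 6.12% and 1.59% over 20 CpGs near its start (difference -4.53, interval -7.16 to -1.97). Hoxa3, needed for the thymus and parathyroid, had no shared CpG near the start, but its transcript (chr6:52119939-52122648, minus strand) held the highest mean of all the listed genes, 27.1% against 11.7% over 16 CpGs (difference -15.4, interval -18.6 to -11.9). The transcript of Hoxa2, which specifies the second pharyngeal arch, had 3.66% and 1.01% over 12 CpGs (-2.65, interval -4.11 to -0.553). Hoxd4 had 11.4% and 2.40% over 12 CpGs of its transcript (-8.98, interval -13.0 to -4.70), and 1 of them was called.

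Of the other head-end genes, Hoxb1, which sets the identity of rhombomere 4 in the hindbrain, had 3.37% in wild type and 4.17% in Dnmt3a KO over 6 CpGs near its start, with an interval from -4.49 to 6.57. In its transcript the values were 14.0% and 13.8% (interval -8.57 to 8.55), and 1 CpG with 77.8% in wild type and 71.4% in Dnmt3a KO made most of both means. Hoxa4 had 0.483% and 0% over 18 CpGs near the start (interval -1.79 to 0.743). Hoxc4 had 1.58% and 0.178% over 17 CpGs near the start, and 3.93% and 0.684% over 24 CpGs of its transcript (-3.25, interval -4.31 to -1.95). Over the 4 Hoxc4 CpGs covered in all 3 libraries the difference was 0.758, with the sign turned. Hoxb4, Hoxd4, Hoxa2 and Hoxa3 had no shared CpG near the start.

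The middle genes of groups 5 to 8 act mainly in the neck and thorax. Near the start, 8 of the 11 had a value, and the medians were 0.732% and 0.187%. Hoxc6 was the highest, at 7.45% in wild type and 0% in Dnmt3a KO, but over 6 CpGs and a median of 11 reads in wild type (interval of the difference -16.3 to -0.743). Hoxa7 had 0.696% and 0.370% over 38 CpGs (interval of the difference -0.784 to 0.459). Hoxa5, required for the lung and airways, had 0% in both libraries at all 23 shared CpGs. Over all 42 CpGs covered near its start in Dnmt3a KO the mean was 1.52%, and 2 of them reached 20%, the highest at 27.3%. Hoxb7 had 0.220% and 0.189% over 23 CpGs and Hoxd8 had 0.0638% and 0.184% over 60. The interval held 0 for both (-0.455 to 0.674 and -0.00934 to 0.429). Hoxa6, too sparse for a value of its own, had 7 CpGs covered in wild type near its start, with a mean of 41.8% and a highest level of 86.7%. Of these 3 were shared, at 37.0% in wild type and 3.03% in Dnmt3a KO. Hoxb8 and Hoxc5 had no shared CpG near the start.

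The tail-end genes of groups 9 to 13 act in the trunk, the limbs and the urogenital tract. Near the start, 15 of the 16 had a value, with medians of 0.311% in wild type against 0.331% in the Dnmt3a KO, though Dnmt3a KO was the lower at 11 of the 15. Hoxd12, a gene of the distal limb (chr2:74512986-74515763, plus strand), was the highest of them. Its 36 shared CpGs had 17.8% and 3.61% (difference -14.2, interval -16.2 to -12.1), and 2 were called lower. No other gene start held 2 called CpGs. The Hoxd genes on either side were nearly free of methylation near their starts. Hoxd13 had 0.187% and 0.331% over 60 CpGs, and Hoxd11 had 0.0804% and 0.0820% over 61. Hoxb13, a gene of the tail end and prostate, had 5.91% and 1.57% over 22 CpGs near the start (difference -4.34, interval -6.27 to -2.18), and 14.2% and 4.01% over 12 CpGs of the transcript (-10.2, interval -14.1 to -6.02).

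Hoxa10, which acts in the lumbar region and the uterus, had 0.255% and 0.139% over 53 CpGs near the start. Hoxb9 had 0.224% and 0.410% over 45, Hoxc11 had 0.210% and 0.415% over 29, and Hoxc13, a gene of hair and nails, had 0.168% and 0.0556% over 50. The intervals of these 4 held 0. Hoxc10, which patterns the lumbar spinal cord, had 1.67% and 0.625% over 20 shared CpGs, but 10.3% over the 42 CpGs covered in wild type. All 6 of its CpGs that reached 20% in wild type were among those that the Dnmt3a KO library did not cover. Hoxa9 had only 2 shared CpGs near the start, at 25.7% and 9.09%. Hoxd9 and Hoxd10, which lie between the quiet starts of Hoxd11 and Hoxd8, had 2.66% and 1.73% in wild type and 1.16% and 0% in Dnmt3a KO. The 9 starts with a value not yet named (Hoxa11, Hoxa13, Hoxb2, Hoxb5, Hoxb6, Hoxc8, Hoxc9, Hoxc12 and Hoxd1) lay between 0.283% and 1.85% in wild type and between 0% and 0.714% in Dnmt3a KO. Across all 30 genes with a value near the start, 5 of 6232 Dnmt TKO reads were methylated.

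Shared methylated CpGs were joined into runs, whose number and length depend on which CpGs RRBS covered. Whether methylated CpGs lie closer together than other covered CpGs was not tested. The 116 shared cluster CpGs that reached 20% in wild type formed 30 runs, in which neighbours were no more than 1000 bp apart, and 6 of the runs were single CpGs. The wild-type level chose them, so it is a description. Means of runs leave out the CpGs under 20% that lie between. All 30 had a lower mean in Dnmt3a KO, by -6.35 to -64.8 percentage points. Read intervals lay below 0 for 26 runs, 25 had a Dnmt3a KO mean under 20%, and 13 held a called CpG. By CpG, 23 of the 116 (19.8%) were called lower, against 6.59% of the genome's CpGs that reached 20% in wild type. The wild-type means of these 2 sets differed, at 41.7% and 68.6%. In Dnmt TKO, 34 of the 116 CpGs were covered, none of their 500 reads was methylated, and 16 of the 30 runs had no covered CpG.

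**Figure D4:**
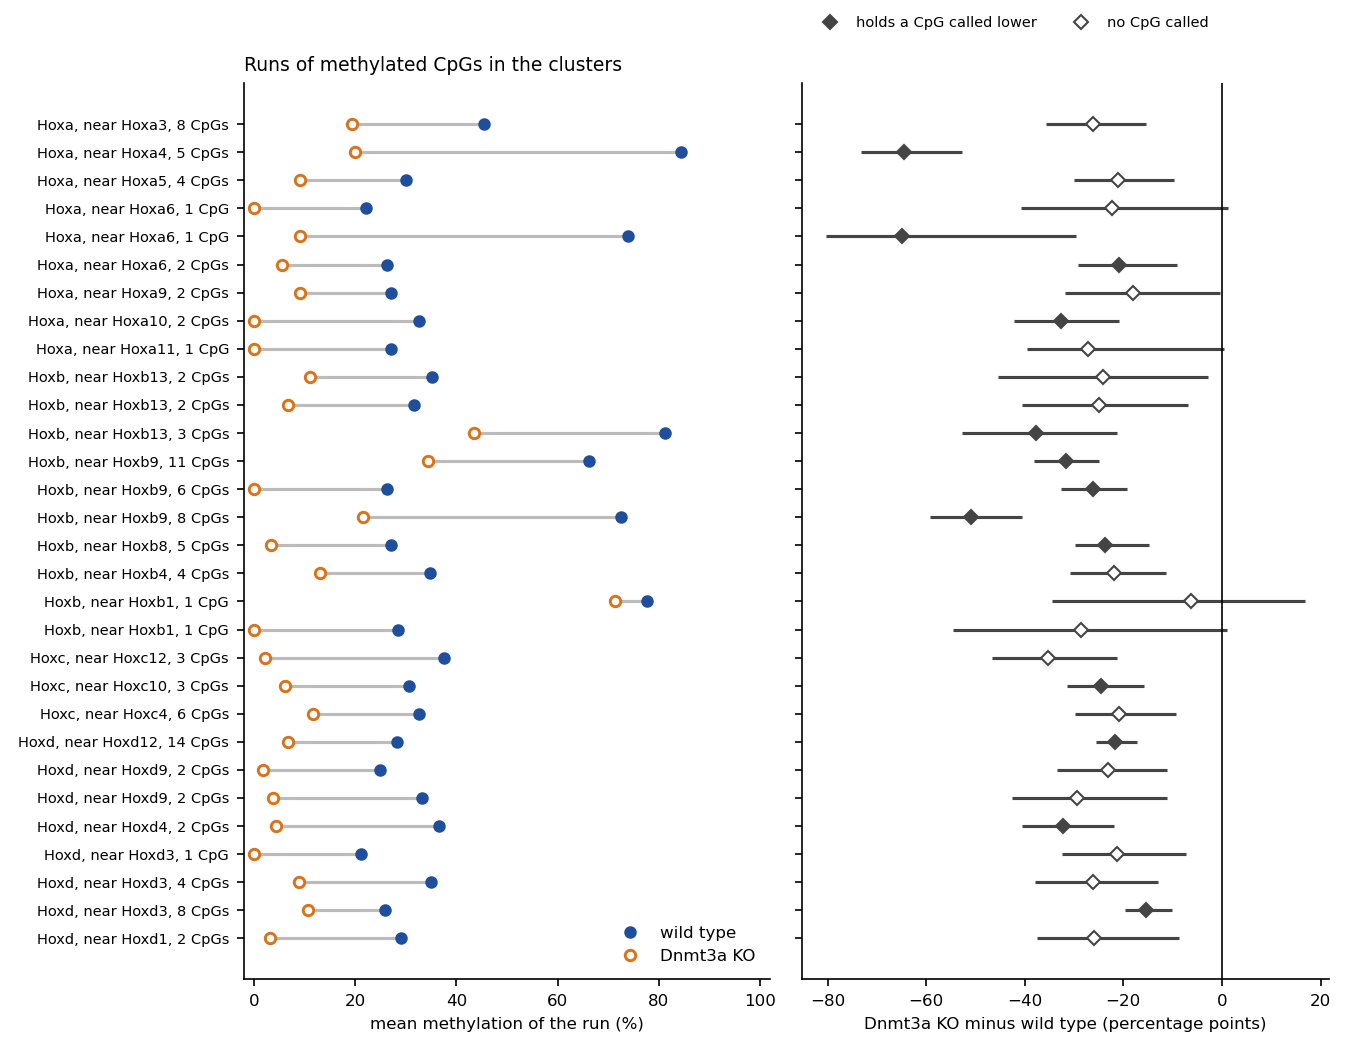
The 30 runs of methylated CpGs inside the Hox clusters, named by cluster, nearest listed Hox gene and number of CpGs. On the left, mean methylation in percent in wild type (blue) and Dnmt3a KO (open orange); on the right, Dnmt3a KO minus wild type in percentage points with the 95% interval of the read counts, filled where the run held a CpG called lower. All 30 differences are below 0, and 4 intervals reach or cross it, the run at Hoxb1 (-6.35) among them.

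In Hoxa there were 9 runs. The run in the intron of Hoxa3 and of the neighbouring gene 2700086A05Rik (chr6:52135401-52135507), whose sequence is printed above, was the most methylated of all 30. Its 5 CpGs averaged 84.5% in wild type against 20.0% in the Dnmt3a KO (difference -64.5, interval -73.2 to -52.7). All 5 were called lower, more than in any other run. In a coding exon of Hoxa3 (chr6:52120035-52120422), 8 CpGs had 45.5% and 19.4% (difference -26.1, interval -35.6 to -15.5), with none called. A single CpG 923 bp from the Hoxa6 start (chr6, 52159644) had 73.9% and 9.09% and was called lower (q = 0.0409 by Fisher's exact test). The 6 other Hoxa runs were of 1 to 4 CpGs with 22.2% to 32.7% in wild type and at most 9.11% in Dnmt3a KO. They lay by Hoxa5, Hoxa6, Hoxa9, Hoxa10 and Hoxa11.

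In Hoxb there were 10 runs, and 3 of the 4 with the highest levels lay in the long stretch between Hoxb13 and Hoxb9. Over a coding exon of Gm53 and the DNA next to it (chr11:96125597-96126364), 8 CpGs had 72.5% in wild type and 21.5% in Dnmt3a KO (difference -51.0, interval -59.3 to -40.5), and 4 were called. In the noncoding exon of Gm11539 (chr11:96110022-96110258), 11 CpGs had 66.2% and 34.5% (-31.7, interval -38.1 to -24.9), and 2 were called. Further towards Hoxb13, 3 CpGs (chr11:96088423-96088451) had 81.3% and 43.6% (-37.7, interval -52.7 to -21.2). The last-named 2 runs kept the most methylation in Dnmt3a KO among those of 2 or more CpGs. An intron of Gm53 (chr11:96116766-96117611) held 6 CpGs with 26.2% in wild type and none in Dnmt3a KO.

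The other Hoxb runs lay closer to Hox genes. Runs of 2 CpGs each in a coding exon and the 3′ untranslated region of Hoxb13 had 35.2% and 31.7% in wild type and 11.1% and 6.67% in Dnmt3a KO. Between Hoxb9 and Hoxb8, 5 CpGs had 27.1% and 3.36%, and 1 of them was called. Upstream of Hoxb4, a gene used in blood stem cells, 4 CpGs at 1414 to 1608 bp from the start had 34.8% and 13.0%. The run with the smallest difference was 1 CpG in the 3′ untranslated region of Hoxb1, at 77.8% of 36 reads and 71.4% of 14 reads (-6.35, interval -34.5 to 16.8).

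In Hoxc there were 3 runs, of 12 CpGs in all. In the 3′ untranslated region of Hoxc12, 3 CpGs (chr15:102769007-102769036) had 37.5% and 2.22% (difference -35.3, interval -46.6 to -21.4). Upstream of Hoxc10, 3 CpGs at 3321 to 3351 bp from the start had 30.7% and 6.17% (-24.5, interval -31.4 to -15.7), and 2 were called with q = 0.0176 and 0.00192 by Fisher's exact test. In an intron of Hoxc4, 6 CpGs (chr15:102857510-102858116) had 32.7% and 11.7% (-21.0, interval -29.9 to -9.33), with 12 CpGs under 20% between them left out.

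In Hoxd there were 8 runs, mostly of intermediate level. Hoxd12 held the longest of all 30 by CpG number, with 14 CpGs across its coding and untranslated exons and its intron (chr2:74513116-74513823). These 14 had 28.3% in wild type and 6.68% in Dnmt3a KO (difference -21.6, interval -25.5 to -17.3). Between them lay 20 CpGs under 20% in wild type, which these means leave out. Upstream of the Hoxd3 start, within the intron of a longer Hoxd3 transcript, 4 CpGs had 35.0% and 8.94% (-26.1, interval -37.8 to -13.0). Downstream of that start, 8 intronic CpGs (chr2:74578515-74579281) had 26.0% and 10.7% (-15.3, interval -19.6 to -10.2), with 13 CpGs under 20% between them left out. Among those 8, the CpG at 74579181 was higher in Dnmt3a KO, 63.6% of 11 reads against 52.5% of 40 (interval -20.7 to 37.1). In the coding sequence of Hoxd4, 2 CpGs had 36.5% and 4.29% (-32.3, interval -40.5 to -21.8), and 1 was called.

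Methylated CpGs of the clusters lay in CpG-poorer DNA and away from Hox starts. Those that reached 20% in wild type had a median of 5 CpGs within 50 bp (quartiles 4 to 6), against 9 (6 to 12) for those under 20%. Their median distance from the nearest listed Hox start was 3386.5 bp, against 1118 bp. In wild type the mean was 12.9% with 1 to 3 CpGs in that span, 8.36% with 4 to 6, 3.32% with 7 to 9 and 0.716% with 10 or more. The Dnmt3a KO means were 5.25%, 2.73%, 0.804% and 0.354%, so the order by density was the same in both libraries. Within 250 bp of a Hox start 277 CpGs had 0.851% and 0.194%, and at 5000 to 10000 bp 283 CpGs had 7.43% and 2.11%. Density and distance move together here, and their parts were not tested apart. By annotation, coding exons (1058 CpGs) had 2.42% in wild type and 0.842% in Dnmt3a KO, and untranslated regions (262) had 2.83% and 0.972%. Introns (470) had 5.67% and 1.52%, exons of noncoding genes (177) had 6.40% and 2.97%, and intergenic DNA (213) had 6.25% and 1.97%.

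**Figure D5:**
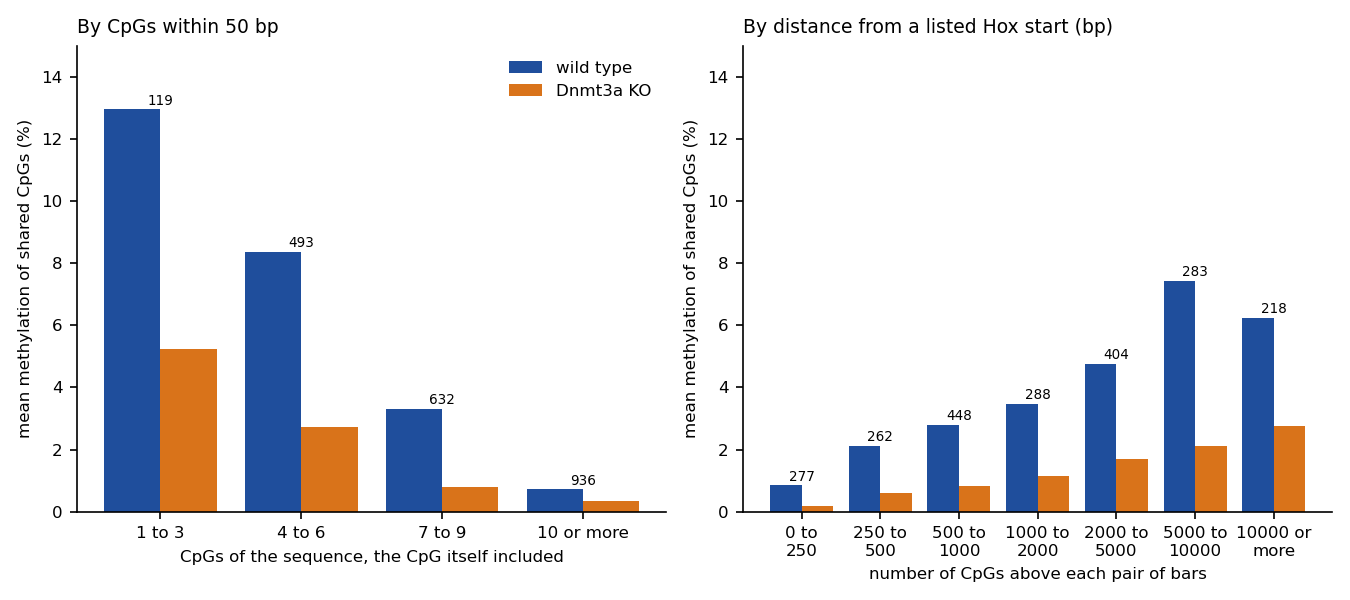
Mean methylation of shared cluster CpGs in percent, in wild type (blue) and Dnmt3a KO (orange), by the number of CpGs within 50 bp (left) and by the distance from the nearest listed Hox start in bp (right), with the number of CpGs above each pair of bars. Wild-type means run from 12.9% at the lowest CpG density to 0.716% at the highest, and the Dnmt3a KO bar is the lower in every class.

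The borders were more methylated than the clusters, but unevenly and with few CpGs. Their 205 shared CpGs had 11.9% in wild type and 4.76% in Dnmt3a KO (difference -7.14, interval -7.86 to -6.40), a share lost of 60.0%. No border CpG was called in either direction by the combined rule, with 17 of the 42 CpGs that reached 20% in wild type at an unadjusted p under 0.05 by Fisher's exact test. In the genome 42227 of 156853 CpGs of that class were lower at this p. The right border of Hoxa, towards Evx1, held 131 of the 205 and was the lowest, with 5.64% and 1.32%. The left border of Hoxb had 23.6% and 13.2% over 20 CpGs (-10.4, interval -14.6 to -5.90). Its right border had 25.8% and 10.8% over 19, and the right border of Hoxc had 17.6% and 4.52% over 31. The left border of Hoxd held only 4 shared CpGs, with 47.8% and 48.7% (0.868, interval -14.5 to 16.3). The left borders of Hoxa and Hoxc had no covered CpG in any library, and the right border of Hoxd had 2 in wild type alone.

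Within 10000 bp of the window limits, the few covered CpGs on the outer side had a higher mean than those on the inner side. Outside the edge, 17 shared CpGs within that distance averaged 31.7% and 20.5% in wild type and Dnmt3a KO. On the inner side, 320 CpGs had 1.42% and 0.646%. Farther out the means were not ordered by distance. At 10000 to 20000 bp outside, 29 CpGs had 6.66% and 1.10%, and at 20000 to 30000 bp 44 CpGs had 16.0% and 6.89%. Each outside class came from few CpGs and different clusters, so no gradient can be read from them.

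All 11 border runs had a lower mean in Dnmt3a KO, by -4.20 to -34.9 percentage points, and 9 read intervals lay below 0. These runs too were chosen by the wild-type level, which favours lower values in the other library. All 42 of their CpGs were lower, against 80.8% of the genome's CpGs that reached 20% in wild type. The genome's CpGs had a higher wild-type mean, 68.6% against 40.8% for the 42. By wild-type level, the share of the genome that was lower was 87.4% at 20 to 30%, 84.8% at 30 to 50% and 77.9% at 50 to 80%. Values follow for the 3 runs with the most CpGs. Beyond Hoxc4, 8 CpGs (chr15:102917157-102917228) had 37.3% in wild type and 12.0% in Dnmt3a KO (-25.3, interval -34.5 to -15.2). In Evx1, a homeobox gene next to the Hoxa cluster, 8 CpGs (chr6:52265481-52265867) had 27.1% and 2.76% (-24.4, interval -32.6 to -16.6). Beyond Hoxb13, 6 CpGs (chr11:96029561-96029637) had 53.1% and 33.6% (-19.5, interval -30.8 to -7.01). The 2 shared border CpGs with at least 80% in wild type went from 93.8% to 61.5% on the right of Hoxb and from 81.5% to 76.5% on the left of Hoxd. The 3 CpGs of the last run had 59.6% and 55.4% (-4.20, interval -21.2 to 12.7), the smallest difference of the border runs.

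Among the other coding genes of the windows and borders, 5 of 8 had 5 or more CpGs near the start. All 5 had at most 1.37% in wild type and lower in Dnmt3a KO, with no CpG called. Inside transcripts the values were higher. Gm53 had 18.3% and 3.51% over 41 CpGs with 5 called (difference -14.7, interval -16.7 to -12.7), and Evx1 had 6.48% and 1.03% over 62 with none called (-5.44, interval -6.50 to -4.44). Evx2, the matching homeobox gene beside Hoxd13, had 0.653% and 0.517% over 151 CpGs (interval -0.392 to 0.174).

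Genes that work with the Hox proteins or control the clusters were mostly unmethylated near their starts. Of the PBC and MEIS cofactors, the homeodomain partners of Hox proteins, 7 of 9 had a value, from 0% to 1.10% in wild type, and none held a called CpG. Of the ParaHox genes, the sister group of the Hox genes, all 6 had a value and none held a called CpG. Pdx1, the pancreatic member, had 10.3% in wild type and 2.86% in Dnmt3a KO. Of the Polycomb genes 14 of 15 had a value, with a median of 0.0585%. Phc2, a PRC1 subunit, had 77.8% and 64.9% over 5 CpGs with 1 called, and Ring1, an E3 ligase of PRC1, had 6.02% and 2.55% over 57. Of the trithorax genes, which oppose Polycomb, 7 of 9 had a value, all of at most 0.612% in wild type. No gene of these lists held a CpG called higher.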

How the data were processed

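RRBS libraries of 3 genotypes of mouse ES cells, 1 each, were compared (DNA with lambda and methylated T7 spike-ins, MspI digestion, bisulphite conversion). Per the submitters' processing notes, Trim Galore and Bowtie were used with the mm9 genome (versions not given in the sources used here), and the study's methods name QuasR for bisulphite alignment and state that CpGs overlapping polymorphisms were removed. They state, for sequencing reads in general, that identical reads were taken out as PCR copies. Whether this was done for RRBS, whose reads start at fixed MspI sites, was not stated separately. Libraries were made from each of 2 fragment ranges, and how the tables combine them was not given. The deposited tables hold, for each CpG covered by at least 10 reads, counts of all reads and of methylated reads and the methylation fraction, which the authors computed as their ratio. Per library 431923 to 970329 CpGs had more than 10 reads and were used. Methylation was recomputed from the counts, as the mean over CpGs unless stated. Sequence and gene annotation were of mm9 (GENCODE), and all 4330 listed positions in the windows and borders were a CG there.

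Intervals were Wilson intervals for shares and Newcombe intervals for differences, computed from summed reads and centred on the difference of CpG means. Fisher's exact test per CpG was adjusted by Benjamini and Hochberg over all shared CpGs and was tested on simulated data. Genes are named if, within a cluster, they had the 2 highest or 2 lowest wild-type means near the start or the 2 largest differences. Every gene of the list is counted, and a few others are named after their values were seen. Runs join CpGs of at least 20% in wild type. Members, gene lists and windows were chosen with earlier results of these data known. Alternatives were a coverage of more than 20 reads (the minimum given in the study's methods), reads in place of CpGs as weights, 100-bp bins, other window limits, other CpG sets and other calling limits. Analyses used Python 3.11.15, numpy 2.4.6, pandas 2.3.3 and scipy 1.17.1, and figures matplotlib 3.10.9.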

Additional observations from a re-analysis of the deposited data

How the results depend on the processing

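No paired analysis was possible because each genotype has 1 library, and for the same reason no library could be left out. Levels depended on how CpGs were chosen and weighted, and the pooled clusters and the pooled borders stayed lower in Dnmt3a KO. The left border of Hoxd, 0.868 over 4 CpGs, was -2.08 by reads, -0.151 with the gene ends as limits and -0.517 with 100000 bp. The wild-type cluster mean of 5.58% was 4.87% with more than 20 reads, 3.83% weighted by reads, 9.81% over 100-bp bins, 5.93% within the outermost gene ends and 2.86% over CpGs covered in all 3 libraries. The Dnmt3a KO cluster mean of 1.38% was 0.878%, 1.14%, 2.29% and, for all 3 libraries, 1.06%. Their difference of -2.58 was -1.67 with more than 20 reads, -1.94 by reads, -4.02 over bins, -2.80 within gene ends and -1.80 over CpGs of all 3 libraries.

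In the borders, the wild-type mean of 19.4% was 14.5% with more than 20 reads, 13.0% by reads, 31.0% over bins, 10.7% outside gene ends, 9.93% for all 3 libraries, 21.1% with borders of 25000 bp and 23.1% with 100000 bp. The Dnmt3a KO mean of 4.30% was, in the same order, 1.68%, 3.36%, 7.01%, 2.93%, 2.48%, 7.59% and 5.77%. The difference of -7.14 was -4.28 with more than 20 reads, -5.68 by reads, -10.1 over bins, -3.47 outside gene ends and -5.79 with 100000 bp.

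The 264 cluster CpGs with at least 20% in wild type became 169 with more than 20 reads and 34 when coverage in all 3 libraries was required. With a limit of 10% there were 452, and with 50% there were 94. Among shared CpGs, the wild-type value chose 116 at 20% and the mean of both libraries 61. The 23 CpGs called lower in the clusters became 11 with more than 20 reads, where 1106 were tested and 2.45% of the genome was called. In the borders 2 were called at 10 percentage points and 2 with no minimum. For the 380 gene values under alternatives, turned signs were counted only where the main interval excluded 0. By this count 3 turned, all over CpGs of all 3 libraries. They were Hoxc4 near the start and in the transcript (0.758 each, 4 CpGs) and the Hoxc13 transcript (0.0293, 21 CpGs). Differences whose interval held 0 could turn as well. The Hoxa13 transcript, 0.0163 over CpGs, had 0.283% in wild type and 0.164% in Dnmt3a KO by reads. All 199 differences of runs under alternatives stayed below 0. Each alternative kept CpGs chosen by the wild-type level, which favours lower values in Dnmt3a KO, so this does not test that choice. Depth limits the single CpGs most, with a median of 16 Dnmt3a KO reads at methylated cluster CpGs.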

Other observations

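All CpGs covered in wild type near Hox starts, whether or not the Dnmt3a KO library covered them, are described here by wild type alone. Near Hoxa6 the 7 CpGs covered in wild type had 41.8%, and 4 of them at least 20%. Near Hoxd3 21 of the 39 CpGs covered in wild type had at least 20%, and near Hoxd12 17 of 44. Near Hoxc10 there were 6 of 42, with a highest level of 64.7%, and near Hoxa7 3 of 45, also with a highest level of 64.7%. At all other Hox starts with at least 5 CpGs covered in wild type, no more than 2 reached that level.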
